A study of Mus musculus with 2 samples.

Results

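The genes described here are 8 heavy chains of the major histocompatibility complex (MHC) class I, H2-K1, H2-D1, H2-Q4, H2-Q6, H2-Q7, H2-T22, H2-T23 and H2-M3, together with B2m, the light chain beta-2 microglobulin. They were chosen by symbol and matched to the tables by gene identifier, and all 9 were found among the 55536 genes listed. They were measured in 2 libraries, made from total RNA without ribosomal RNA, of nuclei of C57BL/6J mouse macrophages grown from bone marrow, which the labels call the nucleoplasmic fraction. Both libraries are biological replicates of 1 group: the cells had 100 ng/ml Lipid A for 12 h, then 12 h without it, and then 100 ng/ml Lipid A for 10 min. Lipid A is the portion of lipopolysaccharide that activates the receptor TLR4. Replicate 1 started from 1 µg of nucleic acid and replicate 2 from 500 ng, and the labels give both the same donor identifier and separate biosample identifiers. They do not say whether the cells came from separate cultures or animals, so differences between replicates may be technical. Untreated cells and other fractions were not analysed here, so no value below says what Lipid A did to a gene.

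A class I molecule is a heavy chain that holds a short peptide in a groove and is paired with beta-2 microglobulin, without which most heavy chains do not reach the cell surface. In mice, H2-K1 and H2-D1 encode the classical chains that show peptides to CD8 T cells. The genes of the Q, T and M regions encode the less variable, nonclassical chains, several of which bind a narrow set of ligands. Class I genes are induced by interferons in many cell types, through promoter elements that lie close upstream of the start, and macrophages that sense lipopolysaccharide make interferon beta.

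The stretches of promoter below were set side by side because each holds a match to the core of an interferon-stimulated response element. They come from RefSeq windows on GRCm38.p6 that reach from 250 bases before to 50 bases after the annotated start, and 9 of 9 genes had such a window. The annotation used for the counts differs from RefSeq for H2-D1 and H2-T23. Its first exon of the coding transcript H2-D1-202, chr17:35262730-35263186, holds the whole H2-D1 stretch. The first exon of H2-T23-201, chr17:36032609-36032855, holds the core of H2-T23. For these genes, upstream refers to the RefSeq start only. Each stretch is 80 bases long, read 5′ to 3′ on the strand of the gene, and capitals mark the interferon response core and, where it was found, the NF-kB site of the class I enhancer.
H2-K1 promoter, chr17:34000394-34000473, minus strand: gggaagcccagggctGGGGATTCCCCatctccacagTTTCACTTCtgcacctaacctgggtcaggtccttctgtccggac
H2-D1 promoter, chr17:35262908-35262987, plus strand: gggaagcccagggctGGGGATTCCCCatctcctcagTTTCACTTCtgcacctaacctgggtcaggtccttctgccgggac
H2-Q4 promoter, chr17:35379428-35379507, plus strand: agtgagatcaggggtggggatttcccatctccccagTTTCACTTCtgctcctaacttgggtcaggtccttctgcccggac
H2-Q6 promoter, chr17:35424662-35424741, plus strand: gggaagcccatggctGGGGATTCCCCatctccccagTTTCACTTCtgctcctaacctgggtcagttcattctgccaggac
H2-Q7 promoter, chr17:35439006-35439085, plus strand: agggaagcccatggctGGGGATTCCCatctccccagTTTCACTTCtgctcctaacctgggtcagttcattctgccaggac
H2-T22 promoter, chr17:36042889-36042968, minus strand: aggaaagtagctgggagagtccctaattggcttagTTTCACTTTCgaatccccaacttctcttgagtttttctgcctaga
H2-T23 promoter, chr17:36032781-36032860, minus strand: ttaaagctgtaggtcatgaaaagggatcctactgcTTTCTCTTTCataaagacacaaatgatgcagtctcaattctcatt
H2-M3 promoter, chr17:37270097-37270176, plus strand: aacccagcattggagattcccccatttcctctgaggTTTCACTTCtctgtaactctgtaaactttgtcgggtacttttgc
B2m promoter, chr2:122147513-122147592, plus strand: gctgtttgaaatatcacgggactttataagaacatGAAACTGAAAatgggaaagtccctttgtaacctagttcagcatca

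The interferon response core was searched on both strands in a short form, TTTC followed by any 2 bases and TTC, and a long form, TTTC followed by any 2 bases and TTTC. The short form was found in 6 windows, those of H2-K1, H2-D1, H2-Q4, H2-Q6, H2-Q7 and H2-M3, and the long form in the other 3, those of H2-T22, H2-T23 and B2m. The match in B2m was on the opposite strand. At least 1 of the forms was present in 10.4% of all 32851 windows. The letters of the core were the same, TTTCACTTC, in all 6 genes with the short form. Its distance from the start differed, from base -90 in H2-K1 to base -153 in H2-Q4, counting the start as base 0.

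The NF-kB site, GGGGA followed by any base and TCCC, was found in H2-K1, H2-D1, H2-Q6 and H2-Q7, with its first base 20 or 21 bases before that of the interferon response core. It was present in 0.323% of all windows, and 13 windows of the 32851 held it together with an interferon response core. In H2-K1, H2-D1 and H2-Q6 the site matched on both strands at overlapping positions, which counted as 1 site. H2-Q4, H2-T22, H2-T23, H2-M3 and B2m had no match to these letters in the window. The core of the cAMP response element, TGACG, was found in 7 of 9 windows against 20.8% of all windows, and CCAAT in 9 of 9 against 37.4%. A match describes the letters of the window and does not show that a factor was bound.

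**Figure D1:**
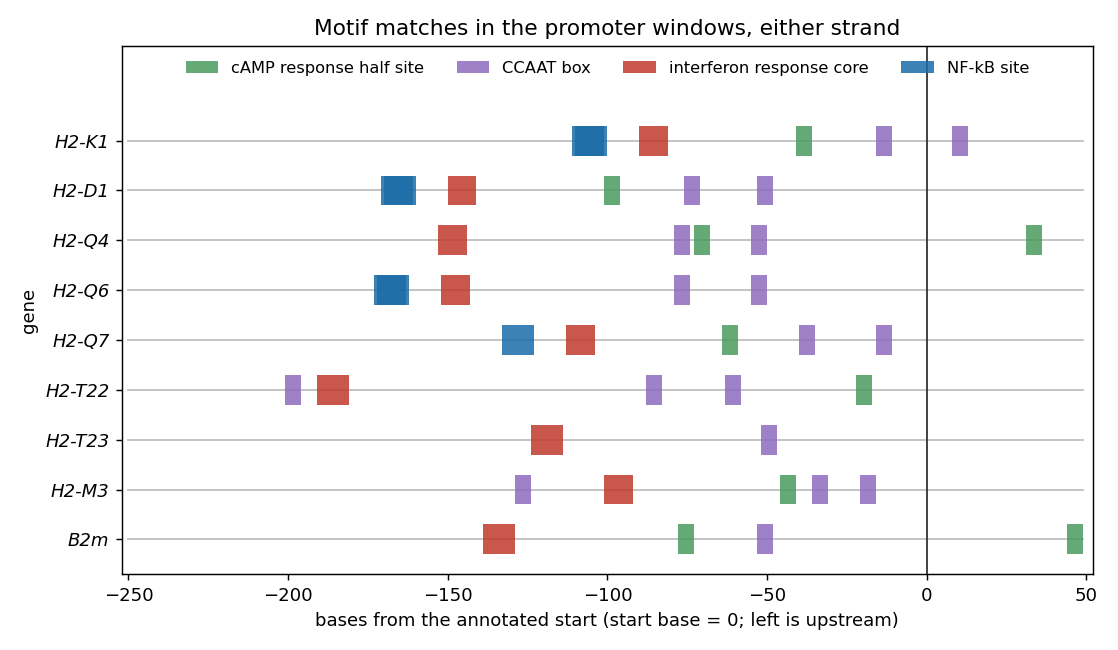
Positions of the motif matches in the 9 promoter windows, in bases from the annotated start (x axis), with 1 row per gene and either strand counted. The interferon response core (red) is present in all 9 rows and the NF-kB site (blue) in 4.

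The libraries held 24444219 expected counts on genes in replicate 1 and 18051097 in replicate 2. An expected count is an estimated number of reads, and TPM is a level per transcript length, scaled to a fixed total over all transcripts. A gene was called detected when its TPM reached 1 and its expected count reached 10 in each library, which 42.9% of protein-coding genes met. The macrophage markers Adgre1, Csf1r, Mpeg1, Lyz2, Cd68 and Mertk were detected, 6 of 6, with summed TPM of 2417 in replicate 1 and 2360 in replicate 2. Of 20 markers of B, T and NK, dendritic and neutrophil cells and of fibroblasts, 0 were detected, the highest TPM of any was 0.60, and 6 were at 0 in both libraries.

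All 9 genes were detected, and RNA of the classical chains H2-K1 and H2-D1 was among the most abundant protein-coding RNA of these nuclei. Protein-coding genes held 20.2% of all TPM in replicate 1 and 22.1% in replicate 2. Replicate 1 had 1.01% of its expected counts on the 9 genes and replicate 2 had 0.701%. The levels ran over a wide range, with the classical chains at the top, B2m next, and the nonclassical chains below it. H2-M3 was the lowest.

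Of the classical chains, H2-K1 (chr17:33996017-34000347, minus strand) had 2100.0 TPM in replicate 1 and 2058 TPM in replicate 2. Its mean of 2079 ± 29.9 TPM (SD, n = 2) was the fifth highest of all protein-coding genes (place 5 in replicate 1 and 7 in replicate 2), next below Psap, the precursor of the saposins, at 3360 and 2994 TPM, and next above mt-Nd5, a mitochondrial respiratory chain subunit, at 1460 and 2663 TPM. This level rested in part on the short transcript H2-K1-215: without it the mean was 1097 ± 378 TPM (SD, n = 2), below H2-D1 with all its transcripts. The tables do not tell whether H2-K1-215 is a transcript of its own or holds reads from the 3′ end of longer transcripts.

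H2-D1 (chr17:35262730-35267499, plus strand) had 1499 TPM in replicate 1 and 1135 TPM in replicate 2, with a mean of 1317 ± 258 TPM (SD, n = 2). Both classical chains were above every other gene of the set in both libraries.

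B2m (chr2:122147686-122153083, plus strand), the only member outside chromosome 17, had 583 TPM in replicate 1 and 439 TPM in replicate 2, with a mean of 511 ± 102 TPM (SD, n = 2). It lay between Lgmn, the lysosomal protease legumain, at 578 and 463 TPM, and Ccl5, a chemokine, at 686 and 255 TPM. B2m thus ranked below the classical heavy chains and above each nonclassical one.

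Of the Q-region chains, H2-Q4 (chr17:35379617-35385290, plus strand) was highest, at 279 TPM in replicate 1 and 233 TPM in replicate 2, with a mean of 256 ± 32.3 TPM (SD, n = 2). H2-Q6 (chr17:35424850-35430055, plus strand) had 113 TPM in replicate 1 and 80.7 TPM in replicate 2. H2-Q7 (chr17:35439155-35443773, plus strand) had 83.7 TPM in replicate 1 and 56.6 TPM in replicate 2. H2-Q7 encodes a chain of the Qa-2 antigen, which is held in the membrane by a lipid anchor.

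H2-T23 (chr17:36029773-36032855, minus strand), which encodes Qa-1, the chain that presents leader peptides of other class I chains to NKG2A receptors, had 261 TPM in replicate 1 and 179 TPM in replicate 2. H2-T22 (chr17:36037128-36042747, minus strand), whose product is recognised by some gamma delta T cells, had 143 TPM in replicate 1 and 88.5 TPM in replicate 2. H2-M3 (chr17:37270220-37274484, plus strand), which presents peptides that begin with N-formyl methionine, had 31.2 TPM in replicate 1 and 26.0 TPM in replicate 2. The T-region chains were therefore close to the Q-region chains in level, and H2-M3 was below both.

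By mean TPM the order was H2-K1, H2-D1, B2m, H2-Q4, H2-T23, H2-T22, H2-Q6, H2-Q7 and H2-M3, and each library gave the same order. Neighbours were called separate where the values of the 2 libraries did not overlap and the gap between means was larger than either SD. H2-Q4 and H2-T23 were not separate, nor were H2-T22 and H2-Q6, nor H2-Q6 and H2-Q7. The other 5 neighbouring pairs were separate. The second set of transcript values, called the other quantification here, gave the same order in replicate 1 and exchanged H2-Q6 and H2-T22 in replicate 2. The place of H2-K1 above H2-D1 was lost when H2-K1-215 was left out and H2-D1 kept all its transcripts.

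**Figure D2:**
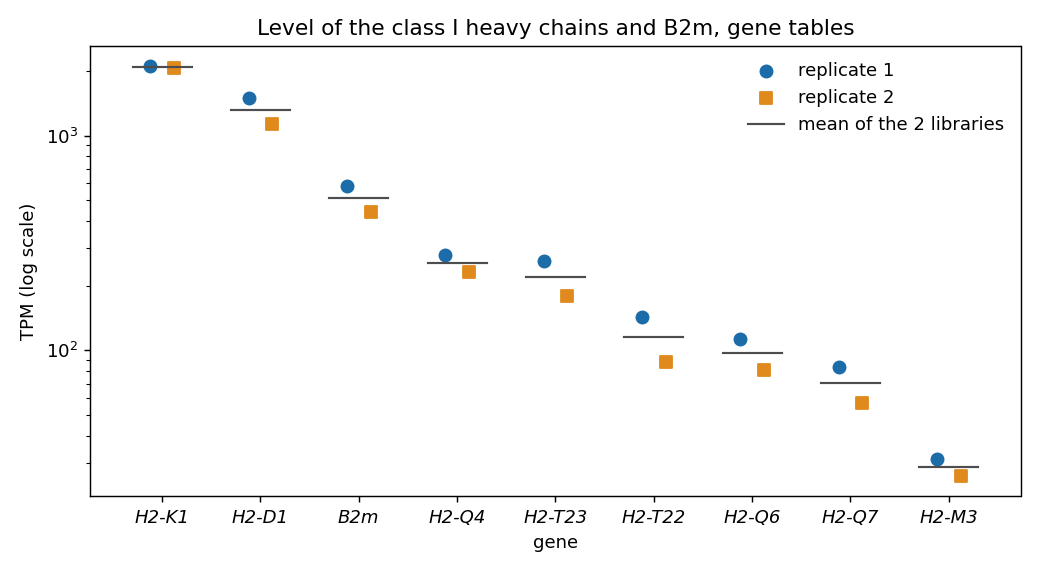
TPM of each gene (log axis) in replicate 1 (circles) and replicate 2 (squares), with the mean of the 2 libraries as a line, ordered by mean. H2-K1 is near 2100 TPM in both libraries, while the other 8 genes are lower in replicate 2 than in replicate 1.

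The heavy chains exceeded B2m in summed level. The 8 heavy chains added up to 4510 TPM in replicate 1 and 3856 TPM in replicate 2, which was 7.74 and 8.79 times the TPM of B2m, with a mean of 8.26 ± 0.74 (SD, n = 2). H2-K1 and H2-D1 held 79.8% of the heavy-chain TPM in replicate 1 and 82.8% in replicate 2. The Q-region chains added 476 and 370.0 TPM and the T-region chains 404 and 268 TPM in replicates 1 and 2.

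The level of H2-K1 depended on how its reads were shared among transcripts. The annotation gives the gene 16 transcripts, of which 8 are typed protein_coding and 7 retained_intron. The transcript H2-K1-215, typed retained_intron, is 457 bases long and lies at the 3′ end of the gene (chr17:33996106-33996674). Of its bases, 437 are also exonic in H2-K1-201, the full-length coding transcript of 1619 bases and 8 exons, and 20 are not.

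H2-K1-215 had 736 TPM in replicate 1 and 1228 TPM in replicate 2, or 35.0% and 59.7% of the TPM of the gene. In expected counts it had 7047 in replicate 1 and 8046 in replicate 2, or 9.61% and 21.4% of the gene. H2-K1-201 had 860 TPM in replicate 1 and 594 TPM in replicate 2, and 47892 and 23047 expected counts. The effective length, over which reads are spread to give TPM, was 241 and 236 bases for H2-K1-215 and 1403 and 1398 bases for H2-K1-201. H2-K1-215 therefore had a minority of the reads in both libraries and, per length, more TPM than the full-length transcript in replicate 2 and less in replicate 1. The other quantification gave H2-K1-215 32.8% of the TPM of H2-K1 in replicate 1 and 53.7% in replicate 2.

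Without H2-K1-215, H2-K1 had 1364 TPM in replicate 1 and 830.0 TPM in replicate 2, below H2-D1 in each. The ratio of H2-K1 to H2-D1 was 1.40 and 1.81 in TPM with all transcripts, and 0.910 and 0.732 without H2-K1-215. Over protein_coding transcripts alone it was 0.772 in replicate 1 and 0.653 in replicate 2. In expected counts it was 0.756 and 0.751, but expected counts are not divided by length. The coding transcripts H2-K1-201 and H2-D1-202 had effective lengths of 1403 and 1886 bases in replicate 1. The ratio in counts therefore compares reads and does not show which gene had the higher level. Without H2-K1-215 the heavy chains summed to 6.48 times B2m in replicate 1 and 5.99 times in replicate 2, so that the order of the replicates was reversed for this ratio as well. This exclusion was chosen after the values had been seen.

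**Figure D3:**
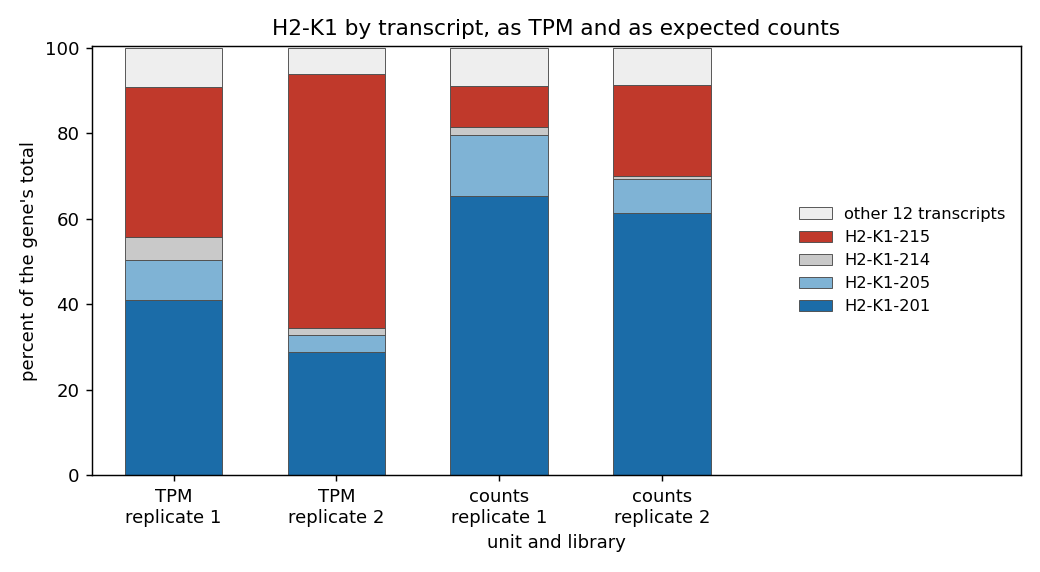
Percent of H2-K1 assigned to each of its main transcripts, in TPM (left pair of bars) and in expected counts (right pair), in replicates 1 and 2. H2-K1-215 (red) takes 35.0% and 59.7% of the TPM but 9.61% and 21.4% of the counts.

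H2-K1 transcripts with the first exon and not the last had higher ratios than those with the last and not the first. Differences are given as log2 of replicate 1 over replicate 2 on counts scaled by TMM factors, which align the libraries on the bulk of genes. H2-K1-214, which ends before the last exon and begins in the first, had 1328 counts in replicate 1 and 265 in replicate 2, a log2 ratio of 2.05. H2-K1-206, which likewise begins in the first exon and ends before the last, had a ratio of 2.09. The 5 transcripts that begin after the first exon and reach the last had ratios between -0.74 and 0.63, H2-K1-215 at -0.47 among them. The 5 transcripts that span the first to the last exon lay between 0.52 and 1.85, and the 3 that have neither lay between 0.57 and 2.28.

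Over the transcripts of all protein-coding genes the medians differed little between parts of a gene and did not run in order from the 5′ to the 3′ end. For transcripts that span under 50% of their gene and average 50 counts or more, genes were divided into 3 equal parts. The median ratio relative to that of the whole gene was 0.01 for 2317 transcripts centred in the 5′ part, -0.06 for 1056 centred in the middle part and -0.04 for 2716 centred in the 3′ part. H2-K1-215 was at -1.16 relative to H2-K1. The spread around these medians was not computed, so they do not show how common such a value is. Of the other members, H2-D1-203, in the part from 69.0% to 87.2% of the length of its gene, was at -0.16, H2-D1-201, with the same ends, at 0.14, and H2-D1-204, from 57.6% to 75.3%, at -0.77. H2-Q7-205, from 65.7% to 99.9% of its gene, was at -0.29. H2-T23-203, from 4.05% to 35.5%, was at 2.84 but averaged 43.0 counts.

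Retained_intron transcripts are annotated for 6 of the 9 genes and held very different shares of them. In H2-Q7 they took 55.3% of the TPM in replicate 1 and 68.8% in replicate 2, and 78.4% and 86.0% of the expected counts. Most of that was H2-Q7-206, a transcript of 4209 bases that spans nearly the whole gene, with 5640 counts in replicate 1 and 3216 in replicate 2. Of 5973 protein-coding genes with both types of transcript and a TPM that reached 1 in each library, 1.54% had a count share as high as that of H2-Q7 in replicate 1 and 1.00% in replicate 2. By share of TPM, 10.6% of these genes were as high in replicate 1 and 4.75% in replicate 2.

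H2-D1 was at the other end, with 1.85% of its TPM on retained_intron transcripts in replicate 1 and 3.10% in replicate 2. Its coding transcript H2-D1-202 held 84.8% and 82.2% of the TPM. The median gene of the 5973 had 26.4% of its TPM there in replicate 1 and 27.1% in replicate 2. In TPM, H2-T23 was at 23.2% and 23.6%, H2-T22 at 17.1% and 19.5% and H2-Q4 at 18.1% and 15.3%, all below the median gene. In expected counts the direction was reversed: the median gene had 15.1% in replicate 1 and 15.5% in replicate 2, against 30.5% and 31.5% for H2-T23, 28.0% and 31.5% for H2-T22 and 25.03% and 21.4% for H2-Q4. The share of TPM was lower in replicate 1 in 5 of the 6 genes and higher in H2-Q4.

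H2-Q6, H2-M3 and B2m have no retained_intron transcript in this annotation, so their share of 100% on protein_coding transcripts follows from the annotation and says nothing of their introns. Over the 9 genes the median share of TPM on protein_coding transcripts was 81.9% in replicate 1 and 84.7% in replicate 2, a mean of 83.3 ± 2.01% (SD, n = 2).

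**Figure D4:**
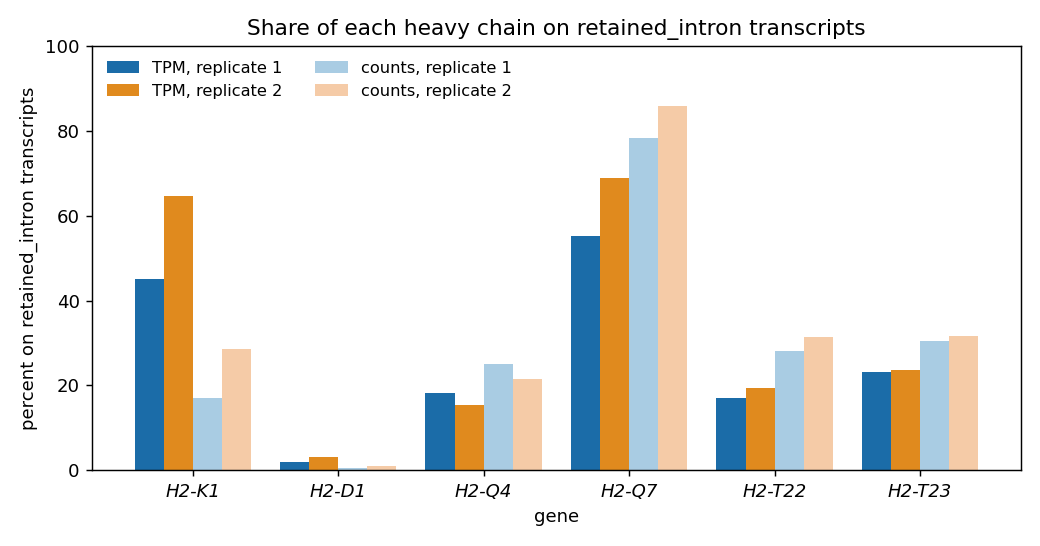
Percent of each heavy chain on transcripts typed retained_intron (y axis) in TPM (dark bars) and expected counts (light bars), replicate 1 in blue and replicate 2 in orange, for the 6 genes with such a transcript. H2-Q7 is highest in counts, at 78.4% and 86.0%, and H2-D1 lowest.

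All 9 genes made up a larger part of replicate 1 than of replicate 2. The median log2 ratio over the 9 was 0.68, against -0.01 over the 11751 protein-coding genes that averaged 10 counts or more, and 9 of 9 were above 0, against 49.4% of those genes. None of the 9 was more than 2-fold higher in replicate 1 (0 of 9, against 4.05%) or more than 2-fold lower (0 of 9, against 2.14%). With 1 library on each side there is no test, and fewer cells of a type cannot be told apart from less RNA per cell.

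The largest ratio was that of H2-T22, with 9834 counts in replicate 1 and 4307 in replicate 2 and a log2 ratio of 0.92 (95% interval 0.86 to 0.97). H2-T23 followed, with 14368 counts in replicate 1 and 6953 in replicate 2 and a ratio of 0.77 (0.73 to 0.81). The interval is an exact binomial one, which covers counting error only. With all transcripts counted, the T-region pair thus stood at the upper end of the set.

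The smallest ratios were those of H2-M3, with 1514 counts in replicate 1 and 879 in replicate 2 and a ratio of 0.51 (0.39 to 0.63), and H2-Q4, with 19034 counts in replicate 1 and 10944 in replicate 2 and a ratio of 0.52 (0.49 to 0.56). With all transcripts counted, the classical chains were nearly equal to each other. H2-K1 was at 0.69 (0.68 to 0.71) from 73369 and 37522 counts and H2-D1 at 0.68 (0.67 to 0.70) from 97060 and 49936 counts. B2m was at 0.66 (0.62 to 0.70) from 14882 and 7779 counts. With all transcripts counted, the classical chains and B2m thus differed between the libraries by like amounts in counts. H2-Q7 was at 0.66, close to B2m, and H2-Q6 at 0.74, above the classical chains and below H2-T23. Without H2-K1-215, H2-K1 was at 0.90, above H2-D1 and between H2-T23 and H2-T22.

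The size and, on 1 scale, the direction of these ratios followed the scaling, while the distance from other genes did not change direction. In TPM of the gene tables the ratios ran from 0.03 for H2-K1 to 0.69 for H2-T22, with the median protein-coding gene at -0.24. In TPM of the other quantification, H2-T22 and H2-T23 alone were above 0, and the median protein-coding gene was at -0.69. Relative to that median all 9 genes were higher in replicate 1 on every scale computed, by 0.27 to 0.93 in gene-table TPM, 0.38 to 0.86 in TPM of the other quantification and 0.52 to 0.92 in TMM-scaled counts. Genes of short effective length were higher in replicate 1 as a class. Protein-coding genes were put into 10 equal classes by effective length. The shortest class, which holds H2-K1 and B2m, had a median of 0.24, and relative to it H2-K1 was at 0.45 and B2m at 0.42. As a gene H2-K1 had an effective length of 880 and 657 bases, but H2-K1-201 had 1403 and 1398. The class of H2-K1 thus depended on the share of its short transcripts. The class with a median effective length of 1430 bases had a median ratio of 0.02. The part of the starting quantity, which also differed between the libraries, was not tested.

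**Figure D5:**
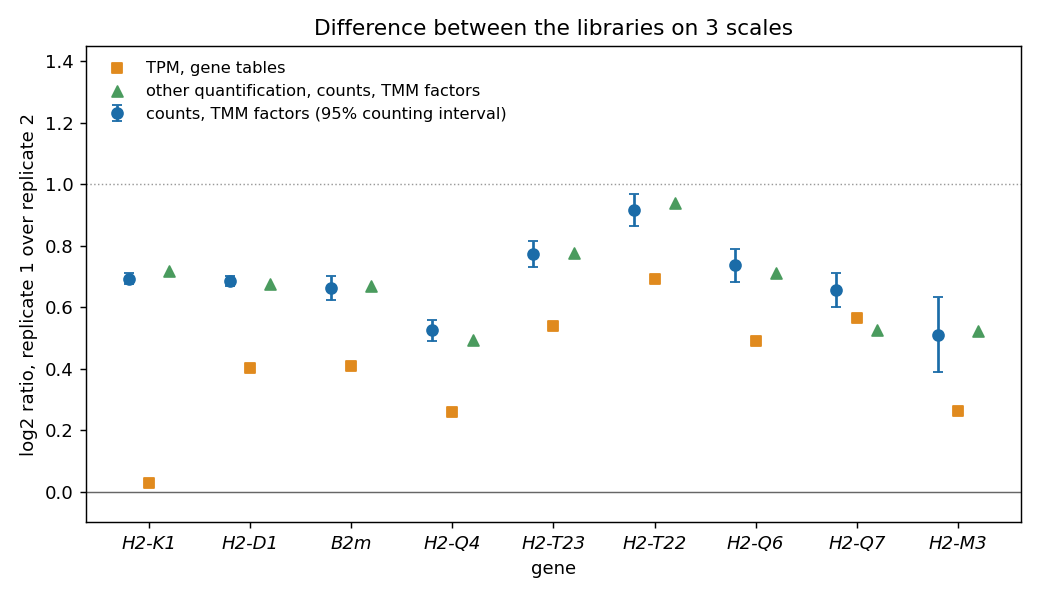
Log2 ratio of replicate 1 over replicate 2 for each gene (y axis), from TMM-scaled counts with a 95% counting interval (circles), gene-table TPM (squares) and counts of the other quantification (triangles), with a dotted line at 2-fold. All points lie above 0, and H2-K1 is at 0.69 in counts but 0.03 in TPM.

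Class I genes resemble each other, and this bears on how far the values of single members can be told apart. Along the coding sequence H2-Q6 and H2-Q7 were identical at 93.2% of aligned positions and H2-K1 and H2-D1 at 88.6%, while the least alike pair of heavy chains, H2-T22 and H2-M3, shared 62.5%. Words of 31 bases were taken from the protein_coding transcript with the highest TPM of each gene. For H2-Q7 that was H2-Q7-201, which held only 13.6% of the gene's counts in replicate 1 and 10.3% in replicate 2. Of these words, 36.2% were found in no other gene for H2-T22, 41.6% for H2-Q4, 47.4% for H2-Q7, 48.2% for H2-Q6 and 50.7% for H2-T23. H2-K1 had 76.7%, H2-D1 72.3%, H2-M3 95.4% and B2m 100%. Over words of 100 bases the lowest share was 78.1%, in H2-Q7.

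H2-T22 shared 56.1% of its 31-base words with H2-T10, typed as a polymorphic pseudogene, which had 1199 counts in replicate 1 and 554 in replicate 2. H2-Q7 shared 31.8% with H2-Q5, also typed as a polymorphic pseudogene, which had 1311 and 649 counts. The SD of the expected count that came from assigning reads among genes was at most 0.201% of the count for any member, in H2-Q7, and 0 for H2-M3 and B2m. The other quantification gave all 9 genes more counts, from 1.05 times for H2-D1 to 1.63 times for H2-M3 in replicate 1 and from 1.35 times for H2-K1 to 2.07 times for H2-M3 in replicate 2. Its TPM was nevertheless lower for all 9 genes in both libraries. There H2-K1 had 713 TPM in replicate 1 and 882 TPM in replicate 2, H2-D1 508 and 573 TPM, and B2m 225 and 233 TPM. Patl2 lies over all of B2m on the opposite strand and had 13 and 7 counts, and Gm11131 overlaps H2-Q4 and had 230.4 and 123 counts. The strand setting of the counting is not given in the sources used here.

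Of 24 other class I heavy-chain genes of the H2 complex, 5 were detected. They were H2-Q5, at 117 TPM in replicate 1 and 145 TPM in replicate 2, H2-T24, at 84.1 and 63.2 TPM, H2-K2, typed as a transcribed pseudogene, at 35.4 and 44.5 TPM, H2-T10, at 15.6 and 10.2 TPM, and H2-M2, at 4.90 and 2.83 TPM. In the other quantification H2-Q5, at 25.6 and 38.6 TPM, was below H2-T24, at 45.8 and 46.8 TPM. The 24 genes summed to 259 TPM in replicate 1 and 267 TPM in replicate 2, so that the 8 heavy chains described here held most of the heavy-chain TPM in the tables. H2-M1, H2-M9 and H2-M11 were among those listed at 0 in the gene tables.

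Among 12 class I-like molecules encoded outside the H2 complex, 6 were detected, none near the level of the classical chains. Ulbp1, a ligand of the receptor NKG2D, had 16.5 TPM in replicate 1 and 15.5 TPM in replicate 2. Fcgrt, the heavy chain of the neonatal Fc receptor, which also pairs with beta-2 microglobulin, had 15.1 and 13.5 TPM, and Hfe, a regulator of iron uptake, had 8.77 and 8.96 TPM. Cd1d2, Azgp1 and Mill1 were listed at 0 in the gene tables.

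The genes of peptide loading were all detected, 8 of 8. Tapbp encodes tapasin, which holds empty class I chains at the peptide transporter, and had 402 TPM in replicate 1 and 276 TPM in replicate 2. The chaperone Calr, calreticulin, had 137 and 154 TPM, and Tap1, a subunit of the transporter, 139 and 98.3 TPM. Their median log2 ratio in TMM-scaled counts was 0.58 and 6 of 8 were above 0, against 49.4% of protein-coding genes. Tap2, the other transporter subunit, was the 1 gene more than 2-fold higher in replicate 1 in TMM-scaled counts, with a log2 ratio of 1.07 from 6437 counts in replicate 1 and 2533 in replicate 2. In TPM, at 65.0 in replicate 1 and 36.6 in replicate 2, it was less than 2-fold higher.

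All 13 transcription regulators of class I genes on the list were detected. Nlrc5, the transactivator of class I promoters, had 119 TPM in replicate 1 and 112 TPM in replicate 2, and Irf1, an interferon-induced factor that binds the interferon response core, 70.4 and 53.0 TPM. The median log2 ratio of the 13 in TMM-scaled counts was 0.06, near that of all protein-coding genes, with Irf1 at 0.62 and Nlrc5 at 0.53.

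Of the 10 symbols listed for receptors of class I and related receptors, 9 were in the tables and 4 were detected. Binding of class I was not measured here. Lilrb4a, an inhibitory receptor of myeloid cells, had 498 TPM in replicate 1 and 677 TPM in replicate 2, and Pirb, an inhibitory receptor that binds class I chains, 226 and 217 TPM. Pira2, its activating relative, had 35.3 and 36.9 TPM. Cd8a, Cd8b1 and Klrc1, which are markers or receptors of T and NK cells, were not detected.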

How the data were processed

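Values came from 2 libraries. Per the deposited file descriptions, the authors quantified genes and transcripts from an alignment to the transcriptome on mm10 with GENCODE M21; the sources used here name no aligner or quantifier. The deposited gene and transcript tables hold, per the file headers, expected counts, TPM scaled over every entry, an SD from assigning reads, and the percent of a gene's TPM on each transcript. The other quantification is a deposited table of estimated counts and TPM per transcript, summed here by gene. Entries that name no gene (1.06% of the counts in replicate 1, 0.245% in replicate 2) were left out. Expected counts were rounded, 0.5 was added, and TMM factors came from edgeR 4.0.16 in R 4.3.3 over genes averaging at least 10 counts; DESeq2 1.42.0 size factors were an alternative. No test between the libraries was made, with 1 on each side. The ratio calculation was checked on simulated counts with known ratios. Intervals are exact binomial (Clopper-Pearson, 95%, scipy 1.17.1) on the counts and cover counting error only. Coding sequences were aligned with edlib. All 9 members are named, with the 3 highest genes of each list and up to 3 not detected; 1 gene that this rule names is not reported here. Members, lists and motifs were chosen with earlier results of these data known.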

Additional observations from a re-analysis of the deposited data

How the results depend on the processing

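All 9 members were detected under a TPM of at least 10 with a count of at least 100, in the other quantification and in each library alone, and 0 of 9 were more than 2-fold higher in replicate 1 under every scaling tried. The heavy-chain to B2m ratio, 8.26, was 7.41 in the other quantification, 15.4 in expected counts, 5.54 over protein_coding transcripts and 6.23 without H2-K1-215, and 7.74 to 8.79 in single libraries. The share of H2-K1 and H2-D1, 81.3%, was 78.9%, 73.7%, 77.8% and 75.3% under the same settings, in that order, and 79.8% to 82.8% in single libraries. Expected counts are not divided by length, and B2m had the shortest effective length of the 9 genes, 644 and 639 bases. The values 15.4 and 73.7% therefore compare reads and not levels. The median ratio of 0.68 was 0.52 with library totals only, 0.41 in TPM and 0.66 relative to genes of like effective length. In TPM of the other quantification it was reversed, at -0.075, as were H2-K1 (-0.31), H2-D1 (-0.18), H2-Q4 (-0.30), H2-Q6 (-0.075), H2-Q7 (-0.074), H2-M3 (-0.24) and B2m (-0.050), where the median protein-coding gene was at -0.69. The median share on protein_coding transcripts, 83.3%, was 85.7% in the other quantification and 81.9% to 84.7% in single libraries. Leaving out H2-K1-215, centring on effective length and the TPM of the other quantification were chosen after the data were seen. Of 72 alternative values of single-member ratios, 40 moved by less than the counting interval. No paired analysis was possible because the series holds 1 group. Depth limits H2-M3 most, with the fewest counts and the widest interval.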
